A study of Mus musculus with 6 samples.

Results

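The aryl hydrocarbon receptor pathway was followed through 7 genes chosen by name: the receptor Ahr, its dimerization partner Arnt, its repressor Ahrr, and the target genes Cyp1a1, Cyp1a2, Cyp1b1 and Tiparp. These were 7 of 23462 named genes on the microarray, which carried 9 probes for them among 56605 probes, with 2 probes each for Arnt and Ahrr. Of the 9 probes, 5 cleared the background on every array of a group or of both, and these entered the tests. These stood for 4 genes, Ahr, Arnt, Cyp1b1 and Tiparp. The other 4 probes, for Ahrr, Cyp1a1 and Cyp1a2, did not pass and are described by their values only.

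The cells were TM4, an established mouse line of testicular somatic cells that is used as a model of Sertoli cells, the nurse cells of the seminiferous tubule. One group had received 10 µM 4-nitrophenol (PNP) for 24 h and the other had received none and was collected after 24 h. Both groups shared the line and the sex (male), and no further treatment is named. There were 3 samples in each group, each on its own single-colour array, on 3 slides in all. As a model the line has a limit: all samples come from 1 line, and whether they were separate cultures is not stated, so the spread between them may be technical.

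AHR is a transcription factor of the bHLH-PAS family that waits in the cytosol, bound to the HSP90 chaperone, until a ligand such as a dioxin or a polycyclic aromatic hydrocarbon reaches it. It then enters the nucleus, pairs with ARNT and binds xenobiotic response elements, whose core reads GCGTG. Its best known targets encode the cytochromes P450 of the CYP1 family, which oxidize aromatic compounds, and a pair of brakes on the pathway: AHRR, which competes for ARNT, and TIPARP, an ADP-ribosyltransferase that acts on AHR itself.

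To show where that core lies, the 250 bases upstream of the transcription start of the 5 target genes are printed here, taken from RefSeq (GRCm38.p6), which held windows for 6 of the 7 members. Capitals mark every GCGTG and its reverse complement CACGC. The windows are chr17:79715062-79715311 (minus strand) for Cyp1b1, chr3:65528197-65528446 (plus strand) for Tiparp, chr9:57697363-57697612 (plus strand) for Cyp1a1, chr9:57683656-57683905 (minus strand) for Cyp1a2 and chr13:74292332-74292581 (minus strand) for Ahrr.
Cyp1b1: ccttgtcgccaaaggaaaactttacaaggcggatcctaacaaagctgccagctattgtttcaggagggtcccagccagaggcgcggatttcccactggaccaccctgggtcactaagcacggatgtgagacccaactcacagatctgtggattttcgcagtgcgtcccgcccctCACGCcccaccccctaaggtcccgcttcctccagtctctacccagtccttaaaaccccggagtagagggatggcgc
Tiparp: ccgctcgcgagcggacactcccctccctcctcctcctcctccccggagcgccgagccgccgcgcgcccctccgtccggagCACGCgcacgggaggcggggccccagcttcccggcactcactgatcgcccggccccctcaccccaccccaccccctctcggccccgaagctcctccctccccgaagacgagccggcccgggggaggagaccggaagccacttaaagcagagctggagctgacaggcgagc
Cyp1a1: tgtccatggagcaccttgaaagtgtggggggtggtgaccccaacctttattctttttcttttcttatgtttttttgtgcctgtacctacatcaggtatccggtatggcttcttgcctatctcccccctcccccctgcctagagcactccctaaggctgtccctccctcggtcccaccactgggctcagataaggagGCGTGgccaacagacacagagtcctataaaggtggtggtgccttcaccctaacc
Cyp1a2: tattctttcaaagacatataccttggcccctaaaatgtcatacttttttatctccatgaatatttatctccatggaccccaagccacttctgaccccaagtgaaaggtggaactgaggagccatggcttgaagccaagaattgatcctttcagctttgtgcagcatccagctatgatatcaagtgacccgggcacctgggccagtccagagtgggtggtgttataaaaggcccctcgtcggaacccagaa
Ahrr: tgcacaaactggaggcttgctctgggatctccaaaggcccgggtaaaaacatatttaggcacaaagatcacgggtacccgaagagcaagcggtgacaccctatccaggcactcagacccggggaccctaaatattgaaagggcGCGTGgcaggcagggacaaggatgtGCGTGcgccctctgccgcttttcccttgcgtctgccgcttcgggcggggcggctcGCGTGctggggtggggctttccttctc

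The Ahrr window held 3 cores, beginning 107, 82 and 27 bases upstream of the start. Cyp1b1, Tiparp and Cyp1a1 held 1 each, beginning 76, 170 and 54 bases upstream, and the letters do not occur in the Cyp1a2 window. Bases further upstream were not searched, so these counts are not the number of response elements of a gene, and a window without the core does not mean that the gene has none. The window of Arnt, which is a partner and not a target, also held 1 core, beginning 29 bases upstream. For comparison, 28.2% of 32851 windows of the same length held at least 1 core on either strand and 2.77% held 3 or more. The same letters are also 1 form of the core that HIF1A binds with ARNT. The 2 targets with transcripts above background, Cyp1b1 and Tiparp, and 1 of those below it, Cyp1a1, thus each carried 1 core in this window.

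On the arrays, between 51.6% and 57.9% of probes were well above background on PNP arrays and between 47.8% and 54.9% on untreated arrays, and no spot was saturated. Of 16 Sertoli cell markers, 13 were above background on all 6 arrays, among them Sox9, Wt1 and Gata4, while Amh, Fshr and Cldn11 were above it on none. All 5 markers of peritubular myoid cells and 3 of 5 macrophage markers (Cd68, Csf1r and Cd14, but neither Ptprc nor Adgre1) were also above background on all arrays. Of 5 Leydig cell markers with a probe, none was, and of 8 germ cell markers only Sycp3 was. Pecam1 was the sole endothelial marker of 4 to rise above background, on 2 arrays. The summed level of the Sertoli list, as log2 of the sum over markers relative to the array's 75th percentile, ran from 3.44 to 3.55 on PNP arrays and from 3.57 to 3.90 on untreated arrays. For the macrophage list it ran from 3.06 to 3.44 on PNP arrays and from 3.24 to 3.79 on untreated arrays. The myoid list ran from 6.31 to 7.63 on PNP arrays and from 6.23 to 7.82 on untreated arrays, and the germ cell list from -1.52 to -1.05 and from -1.41 to -1.18. The Leydig list ran from -4.61 to -3.92 on PNP arrays and from -3.89 to -3.14 on untreated arrays. No Leydig marker was above background on any array, so these sums are background readings and not levels. The endothelial list ran from -4.06 to -3.25 on PNP arrays and from -3.90 to -3.31 on untreated arrays. The part of these shifts in the results below was not tested. The arrays hold RNA of whole cultures, in which fewer cells of a type and less RNA per cell cannot be told apart.

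The question was whether 24 h of PNP changed the transcripts of the receptor, its partner, its repressor or its targets. None of the 4 tested genes passed the test across all 21479 genes and unnamed transcripts (limma, adjusted p from 0.400 to 0.968), against 0% called in the whole table. At an unadjusted p under 0.05 there was 1 of the 4, Arnt, against 9.94% of the table. The groups did not overlap for 1 of the 4, again Arnt, where 15.4% of the table had separate groups and 7.6% had PNP on the higher side. Counted by probe, 1 of 5 was under that p and had separate groups, against 9.38% and 15.3% of all tested probes. The median difference of the 4 genes was 0.39 on the log2 scale, and that of the whole table was -0.042. All 4 differences were above 0, as were 44.8% of the table, but that of Ahr changed sign with the scaling.

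Levels are given as log2 of the processed signal minus the array's 75th percentile, so that 0 is the 75th percentile of the array and each step of 1 is a doubling of signal. Levels of different probes cannot be set against each other, because probes differ in brightness for the same amount of RNA. Differences are PNP minus untreated on this scale.

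Ahr, the receptor, had levels of -1.53, -2.24 and -2.49 on PNP arrays 1 to 3, against -2.00, -2.77 and -1.68 on untreated arrays 1 to 3. The groups overlapped throughout, with the highest level on a PNP array and the lowest on an untreated one. The difference was 0.059 ± 0.35 (SE, n = 3 per group), or 1.04-fold with a 95% interval from 0.601 to 1.81 (limma, adjusted p = 0.968). A change of the receptor transcript within that interval could not be told from none with 6 arrays. The direction was not stable: it was -0.41 within array position 1 and 0.76 within array position 2, and it turned negative under normexp, median centring and quantile normalization (-0.044, -0.045 and -0.0074), as it did without PNP replicate 1 (-0.22) or without untreated replicate 2 (-0.25).

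Arnt, the shared partner of AHR and of the hypoxia factors, had the largest difference of the 4 in the fit without slide, and its 2 probes disagreed in size. With slide as a fixed block Tiparp (0.55) and Cyp1b1 (0.32) exceeded its brighter probe (0.23), but not its dimmer probe (0.69). Within position 1 Tiparp exceeded both Arnt probes. At the brighter probe the levels were 2.86, 2.79 and 2.81 on PNP arrays 1 to 3, against 1.35, 1.79 and 2.63 on untreated arrays 1 to 3. The PNP arrays lay within 0.067 of each other, while the untreated arrays spread over 1.29, with untreated replicate 3 close to the PNP level. The difference was 0.90 ± 0.32 (SE), a fold of 1.87 with a 95% interval from 1.13 to 3.08, and did not pass (limma, unadjusted p = 0.0200, adjusted p = 0.400). At the dimmer probe, annotated with the same transcript, the levels were -0.99, -1.39 and -0.71 on PNP arrays, against -1.56, -0.86 and -1.68 on untreated arrays. There the groups overlapped and the difference was 0.34 ± 0.29 (SE; limma, adjusted p = 0.714).

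**Figure D1:**
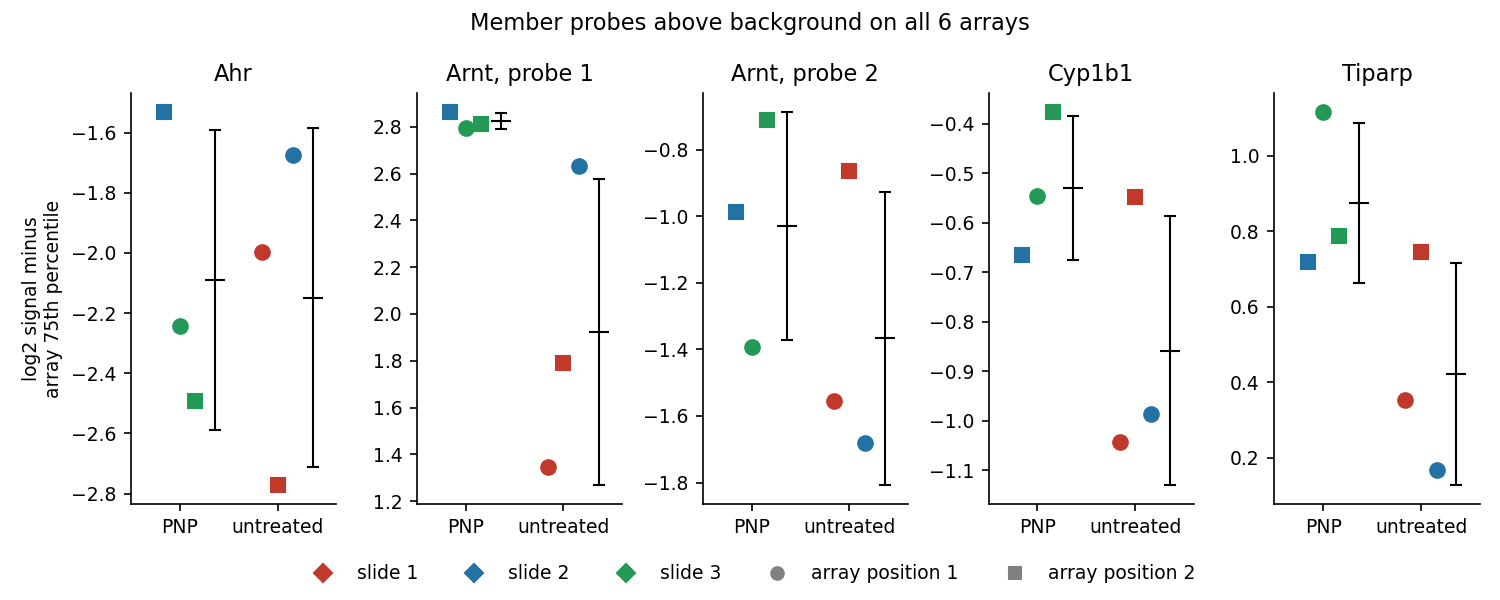
Level of each of the 5 member probes on each array, as log2 signal minus the array's 75th percentile, with PNP left and untreated right in every panel. Colours give the slide and shapes the array position, bars give the mean ± SD of 3 arrays, and the vertical axes differ between panels. At the first Arnt probe the 2 low points, 1.35 and 1.79, are the untreated arrays of slide 1, and untreated replicate 3 on slide 2 stands at 2.63.

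The level of the brighter Arnt probe differed between slides as well as between groups. Slide 1 held untreated replicates 1 and 2, slide 2 held PNP replicate 1 and untreated replicate 3, and slide 3 held PNP replicates 2 and 3. Mean levels were 2.80 on slide 3, 2.75 on slide 2 and 1.57 on slide 1. Within slide 2, the only slide with both groups, the PNP array exceeded the untreated array by 0.23. The fit with slide as a fixed block gave 0.23 ± 0.36 (SE; limma, adjusted p = 0.986). Slides 1 and 3 held 1 group each, so with this block every difference is that of slide 2. Among untreated arrays alone, the slide 2 array exceeded the mean of the slide 1 arrays by 1.06, and 2.15% of all genes and transcripts had a rise of that size or more, or 4.72% a difference of that size in either direction. The dimmer Arnt probe went the other way on this count, with -0.47, and its PNP minus untreated difference within slide 2 was 0.69. The part of the slide in the Arnt difference was not tested.

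The position of arrays within a slide moved the brighter Arnt probe little: the difference was 0.81 within position 1 and 1.05 within position 2. Leaving out 1 array at a time gave 0.61 to 1.26. The lowest value came without untreated replicate 1, where no member was under an unadjusted p of 0.05, and the highest without untreated replicate 3. Arnt passed in 1 alternative, with arrays weighted by their estimated quality (1.40, limma, adjusted p = 0.0279). In that fit untreated replicate 1, the array with the lowest Arnt level, had a weight of 9.11 and the other 5 arrays weights from 0.466 to 0.798, and the estimation of the weights stopped before it converged.

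Of the targets, Tiparp had levels of 0.72, 1.12 and 0.79 on PNP arrays 1 to 3, against 0.35, 0.74 and 0.17 on untreated arrays 1 to 3. PNP replicate 2 stood highest, and untreated replicate 2 lay just above PNP replicate 1, so the groups overlapped by a narrow margin. The difference was 0.45 ± 0.23 (SE), 1.37-fold with a 95% interval from 0.949 to 1.97 (limma, adjusted p = 0.548). It was 0.86 within position 1, 0.0096 within position 2 and 0.55 within slide 2.

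Cyp1b1, the CYP1 enzyme that is expressed widely outside the liver and that oxidizes estradiol as well as aromatic hydrocarbons, behaved much like Tiparp. Its levels were -0.67, -0.55 and -0.38 on PNP arrays, against -1.04, -0.55 and -0.99 on untreated arrays. Untreated replicate 2 matched PNP replicate 2, while the other untreated arrays were lower than every PNP array. The difference was 0.33 ± 0.22 (SE), 1.26-fold with a 95% interval from 0.889 to 1.78 (limma, adjusted p = 0.638). Within position 1 it was 0.47, within position 2 it was 0.026, and within slide 2 it was 0.32. For both targets, the arrays of position 2 thus showed almost no difference. That position held 1 untreated array, replicate 2, which was the highest untreated array for both genes. The upper bounds of the folds were 1.97 and 1.78.

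**Figure D2:**
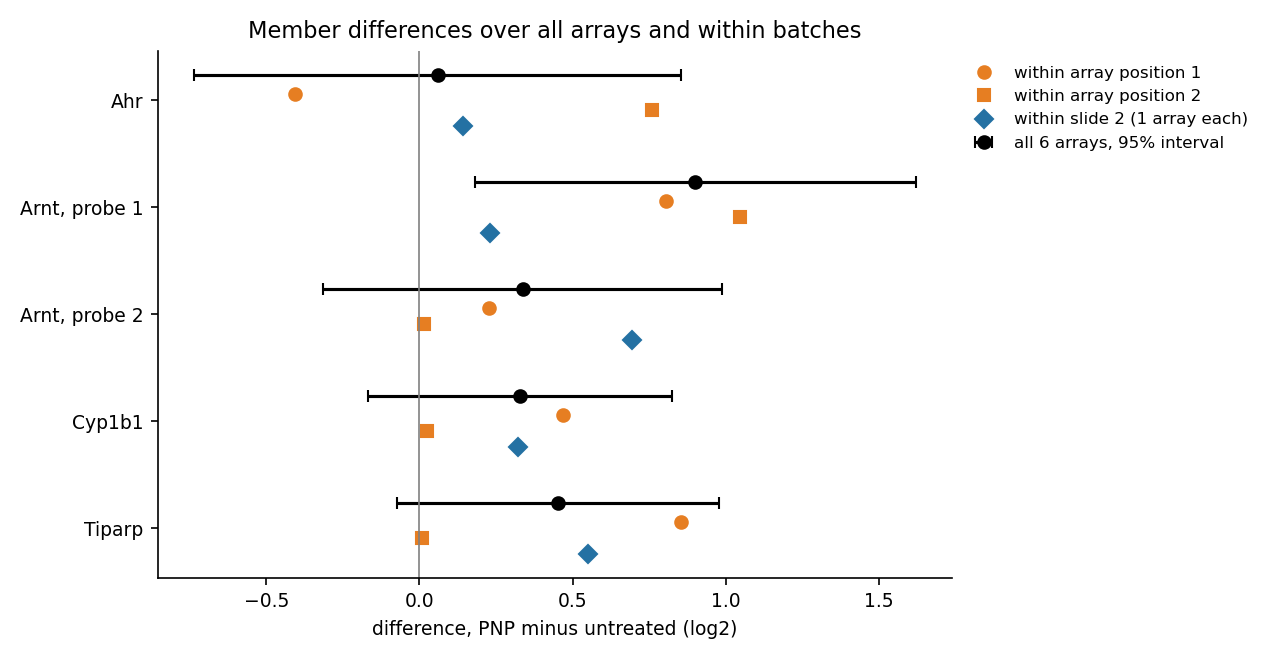
Difference between PNP and untreated arrays, on the log2 scale, for the 5 member probes. Black points with bars are the fit over all 6 arrays with its 95% interval, and coloured points are differences within an array position or within slide 2. The interval lies above 0 only for the first Arnt probe, whose value within slide 2 is 0.23, and the position 2 values of Tiparp and Cyp1b1 are close to 0.

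Cyp1a1, the classic indicator gene of receptor activation, did not clear the background on any of the 6 arrays. Its processed signal was 5.08, 3.71 and 3.34 on PNP arrays 1 to 3, against 2.57, 3.19 and 7.03 on untreated arrays 1 to 3. The lowest signal of any probe well above background was 25.4, 15.8 and 16.4 on the PNP arrays and 12.9, 14.5 and 33.0 on the untreated arrays, so Cyp1a1 lay well under that limit everywhere. Of the 308 negative control spots of an array, 86.7%, 47.7% and 82.8% were as bright as Cyp1a1 or brighter on PNP arrays, against 97.4%, 60.7% and 56.2% on untreated arrays. The signal was thus that of a negative control in both groups, and no fold is given. A Cyp1a1 level under the limit of the arrays would not have been seen.

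Cyp1a2, the CYP1 enzyme typical of liver, was well above background on 1 of 3 PNP arrays and on none of the untreated arrays. Its processed signal was 5.07, 3.68 and 27.2 on PNP arrays 1 to 3, against 2.84, 3.27 and 7.22 on untreated arrays. The reading of PNP replicate 3 stood above the limit of that array (16.4) and above all of its negative control spots, while the other 5 arrays read within the range of theirs. With normexp background correction, which starts from the unprocessed spot signal, PNP replicate 3 had -2.44, against -3.07 and -3.08 on the other PNP arrays and -2.71, -2.57 and -3.18 on the untreated arrays. No fold is given, since the PNP mean stayed under the limit set by the untreated arrays.

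Ahrr, the repressor, did not clear the background at either of its 2 probes. At the brighter probe the processed signal was 11.5, 5.63 and 6.45 on PNP arrays, against 9.80, 5.35 and 7.25 on untreated arrays, and the groups overlapped. At the other probe it was 5.09, 3.68 and 3.66 on PNP arrays, against 2.74, 2.95 and 6.74 on untreated arrays. Negative controls as bright as the brighter probe made up 1.62%, 3.90% and 2.60% on PNP arrays, against 0%, 3.25% and 36.04% on untreated arrays. The brighter probe thus read near the top of the controls on 5 arrays, and no array called it above background.

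**Figure D3:**
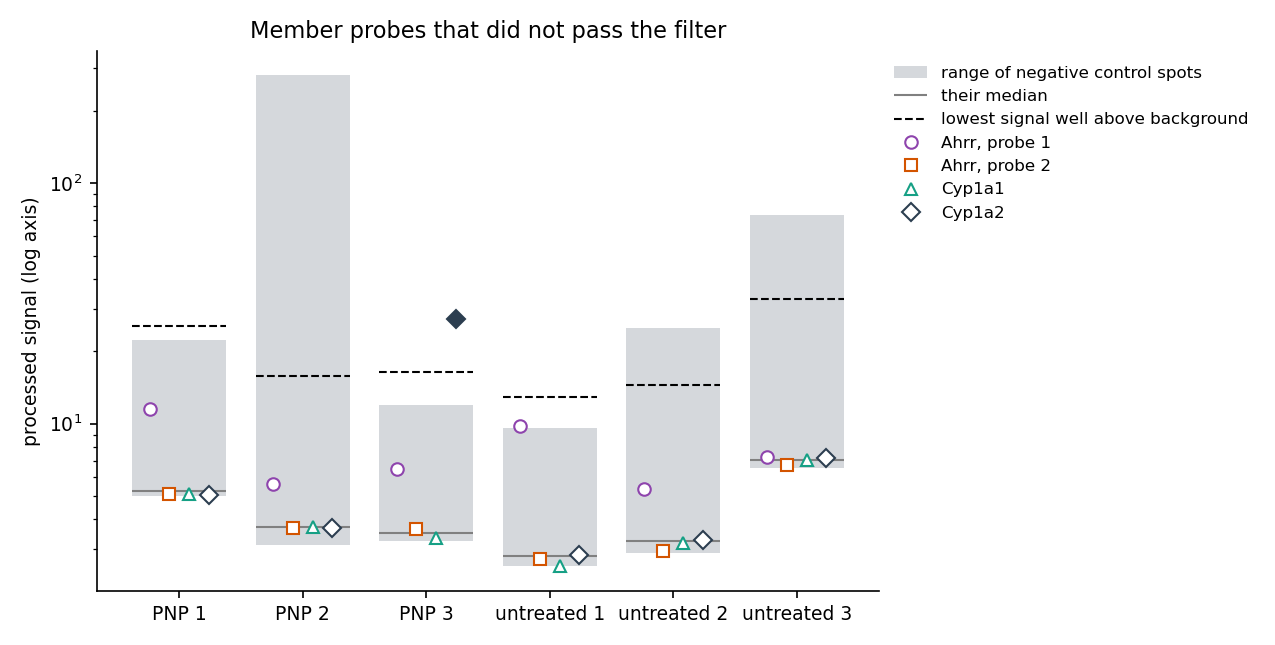
Processed signal, on a log axis, of the 4 member probes that did not pass the filter, on the PNP arrays (left) and the untreated arrays (right). Grey boxes give the range of the 308 negative control spots, grey lines their median and dashed lines the lowest signal well above background on that array. The 1 filled symbol is Cyp1a2 on PNP replicate 3, at 27.2, and all other readings lie under the dashed lines.

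Around these members, 79 genes of 7 pathway lists were read from the same fit, of which 78 had a probe and 59 were tested. None passed over all genes (limma). At an unadjusted p under 0.05 there were 3, or 5.08%, of which 2 were higher and 1 lower with PNP, against 6.86% higher and 3.07% lower in the whole table. Groups were separate for 3 of the 59 with PNP higher and 4 with PNP lower, against 7.6% and 7.83% of the table. Of the 59, 30.5% had a difference above 0, against 44.8% of the table, unnamed transcripts included, and their median was -0.11. The list genes all have names, and the median over the named genes of the table was -0.089, close to that of the lists.

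Among the 13 other bHLH-PAS factors, 8 were tested, 1 was under an unadjusted p of 0.05 and the median was 0.14, but -0.026 without the filter and -0.0045 with array weights. That gene was Hif1a, the oxygen-regulated subunit that pairs with ARNT. Its levels were 1.63, 3.37 and 2.97 on PNP arrays 1 to 3, against 1.16, 0.91 and 1.40 on untreated arrays 1 to 3. Both PNP arrays of slide 3 stood far above the rest, and PNP replicate 1 on slide 2 was near the untreated array of its slide. The difference was 1.50 ± 0.42 (SE), 2.83-fold with a 95% interval from 1.47 to 5.46 (limma, unadjusted p = 0.00608, adjusted p = 0.301). It was 2.10 within position 1 and 1.39 within position 2, but 0.23 within slide 2. That is by layout also the value with slide as a fixed block (limma, adjusted p = 0.986). Leaving out 1 array gave 1.14 to 2.02, the lowest without PNP replicate 2 and the highest without PNP replicate 1. It passed in 2 alternatives over all 6 arrays: with a position block after normexp (1.78, adjusted p = 0.0296) and with array weights (1.48, adjusted p = 0.0384). Within position 1 a single PNP array stood against 2 untreated arrays, so its adjusted p of 0.000145 rests on a spread pooled over genes and assumes that the lone PNP array varies like the others. The part of the slide in this difference was not tested. Npas2, Epas1 and Sim1, which are further members of this family, were not above background on any array at their brightest probe.

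In the cytosolic complex, 4 of 5 genes were tested, none was under an unadjusted p of 0.05, and the median was -0.096, or 0.10 with slide as a fixed block. With that block the median of the whole table also rose, from -0.042 to 0.048, which applies to the lists below as well. Src, a kinase found in the complex, had a difference of -0.46 ± 0.24 (SE), Hsp90aa1, an HSP90 chaperone, 0.23 ± 0.22, and the p23 gene Ptges3 -0.074 ± 0.20. For Src the groups did not overlap, with 0.46, 0.91 and 0.95 on PNP arrays, against 1.54, 1.09 and 1.05 on untreated arrays, and 7.83% of the whole table had separate groups with PNP lower. Hsp90ab1 was left out because its spot was an outlier on untreated replicate 3.

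All 16 coregulators were tested, with a median of -0.041, which was 0.020 with slide as a fixed block and above 0 in several other alternatives, and 1 was under an unadjusted p of 0.05. This was Sp1, a zinc finger factor of GC-rich promoters, with 0.28, 0.23 and 0.59 on PNP arrays, against -1.05, -0.70 and -0.53 on untreated arrays. The groups were separate, but a second Sp1 probe gave a difference of 0.052 ± 0.25 (SE), against 1.13 ± 0.22 at the first (limma, adjusted p = 0.242). At the first probe the difference was 1.02 within position 1, 1.13 within position 2 and 0.80 within slide 2.

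Of 26 other genes known to respond to the receptor in mouse or human cells, 25 had a probe and 17 were tested. Their median was -0.27, against -0.089 over the named genes of the table. Above 0 were 3 of the 17 differences, or 17.6%, against 44.8% of the table. That share of the table includes unnamed transcripts and is not given here for named genes alone. Of the 17, 1 was under an unadjusted p of 0.05: Slc7a5, which encodes the large neutral amino acid transporter that also carries tryptophan and kynurenine. Its levels were 0.41, 0.74 and 1.07 on PNP arrays, against 1.66, 1.24 and 1.29 on untreated arrays, with no overlap. The difference was -0.65 ± 0.24 (SE; limma, adjusted p = 0.430), and it was -0.73 within position 1, -0.50 within position 2 and -0.87 within slide 2. Aldh3a1 and Nqo1, textbook members of the receptor's gene battery that were picked out after their values were seen, had differences of -0.37 ± 0.24 and 0.23 ± 0.37 (SE) and did not pass.

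The flavoprotein Por, which hands electrons to every microsomal P450, had a difference of 0.24 ± 0.22 (SE). The cytochrome b5 reductase Cyb5r3 had -0.33 ± 0.23, the cytochromes b5 Cyb5b and Cyb5a had -0.22 ± 0.21 and -0.070 ± 0.21, and Pgrmc1, a heme-binding partner of P450 enzymes, had -0.094 ± 0.20. The median of the list was -0.094, or 0.14 with slide as a fixed block, where that of the whole table was 0.048. None of the 5 genes of that list was under an unadjusted p of 0.05. All 5 were above background on every array, in contrast to the 2 Cyp1a genes.

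Enzymes that make receptor ligands from tryptophan were tested for 4 of 10 genes, and none was under an unadjusted p of 0.05. Their median was -0.20, or -0.0092 with slide as a fixed block. Afmid, the formamidase that yields kynurenine, had -0.37 ± 0.22 (SE), the kynurenine aminotransferases Kyat1 and Kyat3 -0.25 ± 0.22 and -0.14 ± 0.22, and the amino acid oxidase Il4i1 0.37 ± 0.39. Ido1, Tdo2, Kynu and Aadat were not above background on any array at their brightest probe. Of the 5 genes of receptor degradation, again none was under an unadjusted p of 0.05. The median was -0.17, or -0.032 with slide as a fixed block. The ubiquitin ligases Stub1 and Cul4b had -0.28 ± 0.24 and 0.30 ± 0.26 (SE), the conjugating enzyme Ube2l3 -0.17 ± 0.20, and the RING subunit Rbx1 -0.17 ± 0.23.

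**Figure D4:**
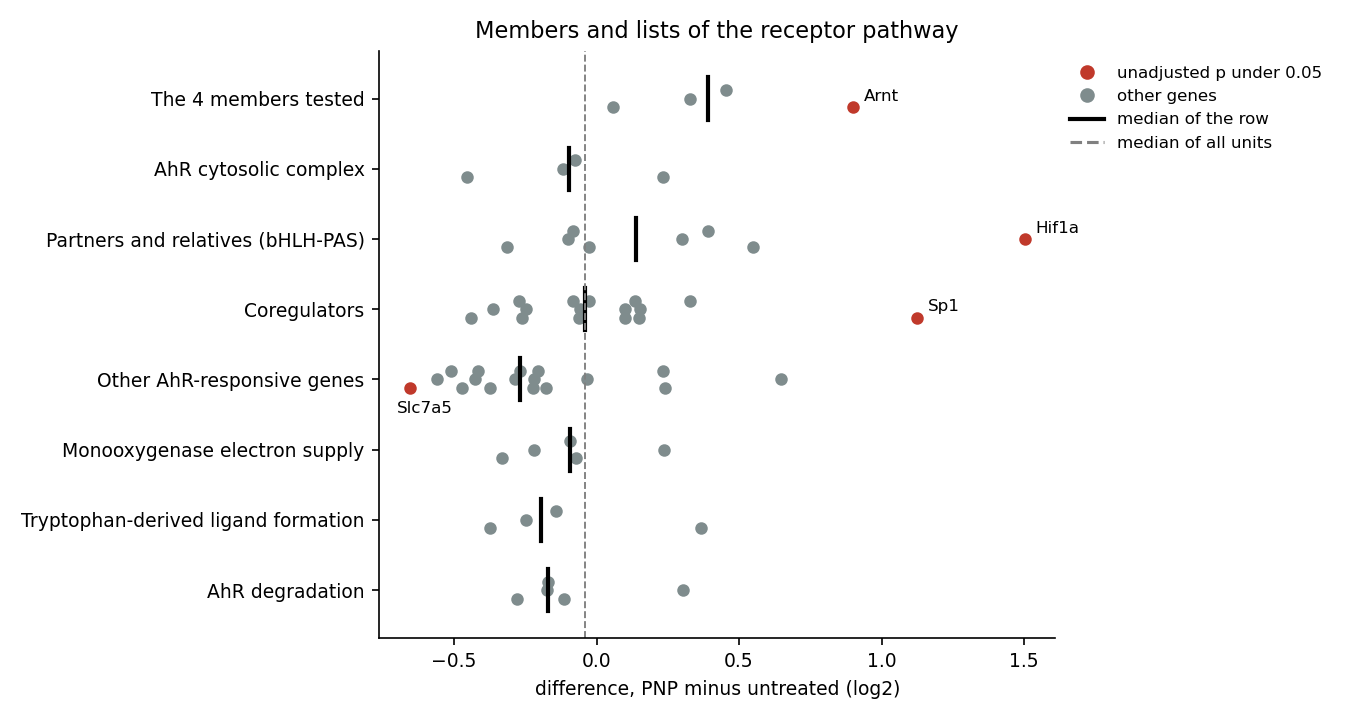
Difference between PNP and untreated arrays, on the log2 scale, for the 4 tested members and for each tested gene of the 7 lists. Black bars are row medians, the dashed line is the median of all genes and transcripts (-0.042), and red points are genes at an unadjusted p under 0.05. Hif1a at 1.50, Sp1 at 1.13 and Arnt at 0.90 lie furthest to the right, and Slc7a5 at -0.65 furthest to the left.

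Genes whose levels ran most like those of a member were sought among 11921 other named genes above background on all 6 arrays, by Pearson's r over the 6 arrays. Those nearest to Ahr were Ncapd3, Cdc42se2 and Dync1li2, with r from 0.986 to 0.995. Nearest to Arnt were Ccdc77, Lage3 and Ccl27a, with r from 0.987 to 0.993. Cyp1b1 was followed by Muc5b, Tceal9 and Teddm2, with r from 0.975 to 0.996, and Tiparp by Ifna15, Zfp451 and Smc4, with r from 0.981 to 0.992. With 6 arrays and this many genes such values are common: 13 to 30 genes had an r over 0.95 with each member. The 6 arrays share slides and positions, and the part of these in the likeness was not tested.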

How the data were processed

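Total RNA of 3 PNP and 3 untreated TM4 samples was labelled with Cy3 and hybridised to single-colour arrays, per the labels' protocols. The deposited intensity values were made with Agilent Feature Extraction. Its version is 11.5.1.1 in the file headers but 10.7 according to the submitters' processing notes. They hold a background-subtracted processed signal, not normalized between arrays, and the median signal of each spot and of its background. The deposited flags (other values, 0 or 1) mark saturated, outlier and above-background spots. The authors' deposited log2 table has columns of almost identical distribution (median 4.74 in each), and each follows its own array's signal with a correlation of 0.998 or more across probes. Its normalization is read from the values, and it is not centred.

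The mean log2 processed signal of a probe's spots, without outliers, was set against the array's 75th percentile. Of 56605 probes, 28208 passed (marked well above background throughout either group), and 195 with no usable spot on some array were left out. Names came from accessions matched, without versions, to RefSeq (GRCm38.p6), which named 33767 probes. The file headers name mm9, so RefSeq coordinates are given only with RefSeq sequence. Each gene took the values of its brightest probe, giving 21479 units. Groups and replicate numbers are those of the labels. The test was limma 3.58.1 (R 4.3.3), two-sided, with p-values adjusted by Benjamini-Hochberg across the units, or across the 28208 probes for probe values, and called under 0.05. The script was tested on simulated data. Precision is limited by the number of arrays.

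The members, the lists and the rule for naming genes were chosen with earlier results of these data known. Named are all members, list genes at an unadjusted p under 0.05 or else up to 4 with the smallest p (Cyb5a, Aldh3a1, Nqo1, Clock and Arntl are additions), and 3 genes of like pattern per member. The values of 1 list gene are not reported here. Alternatives were other background corrections, scalings, filters, probe rules and blocks, array weights, the authors' values, a threshold of 0.1 and leaving out each array. Files were read with data.table, version 1.17.8, and array weights and random blocks used statmod, version 1.5.0.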

Additional observations from a re-analysis of the deposited data

How the results depend on the processing

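No member passed in the main analysis, and the count stayed at 0 under every alternative except array weights, where it was 1 (Arnt, 1 member probe), a fit that leans on untreated replicate 1. Members at an unadjusted p under 0.05 numbered 1 in the main analysis and 2 when the percentile was taken over probes detected everywhere. They numbered 0 with slide as a fixed block, where every difference is that of slide 2 alone. With array weights there were 3, and 0 to 2 when leaving out each array. Arnt, Tiparp and Cyp1b1 were positive under all 22 alternatives, from 0.23 to 1.40, from 0.0096 to 0.86 and from 0.026 to 0.49. Ahr turned negative with normexp (-0.044), quantile normalization (-0.0074), median centring (-0.045), a position block after normexp (-0.020), within array position 1 (-0.41), with array weights (-0.052) and with the authors' values (-0.00088), and ran from -0.25 to 0.30 when leaving out each array. The cause was not tested.

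Over all genes and transcripts 0 were called, but 93 with a position block after normexp, 538 and 78 within array positions 1 and 2 (1 array against 2 in each, the lone array assumed to vary like the others), and 1365 with array weights. Of the list genes 0 were called, but 2 (Hif1a and Sp1), 1 (Hif1a) and 3 (these and Slc7a5) in the first, second and last of these fits. At an unadjusted p under 0.05 there were 2134, but 1154 with slide as a fixed block, 1230 for position 2 alone, 6515 with array weights, and 1103 to 2671 when leaving out each array. With the replicate block there were 1363 and no member was called. Deviations of same-numbered arrays correlated at -0.409, -0.553 and -0.406. Same-numbered arrays always sat at opposite array positions, so these values cannot decide whether the numbers pair the samples. Median centring moved the median of all differences to -0.15, against -0.042, without turning Arnt, Tiparp or Cyp1b1, and it was 0.048 with slide as a fixed block and 0.034 with the percentile over probes detected everywhere. Signal over background limits Ahrr, Cyp1a1 and Cyp1a2, which enter only the fit without the filter, where 0 of 7 members were called.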

Other observations

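Further probes of 3 list genes, picked out after their values were seen, are given as values. The 3 probes of Clock, a bHLH-PAS factor of the circadian oscillator, had differences of 0.55 ± 0.43, 0.66 ± 0.31 and 0.67 ± 0.33 (SE, n = 3 per group), and the first did not pass (limma, adjusted p = 0.687). The 3 probes of Arntl, another bHLH-PAS factor of the same list, went the other way, with -0.31 ± 0.32, -0.55 ± 0.44 and -0.59 ± 0.35 (SE). The first did not pass either (limma, adjusted p = 0.756). The probes of Ube2l3 pointed in opposite directions, with -0.17 ± 0.20 at the brighter and 0.79 ± 0.34 at the dimmer probe.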
